A study of Mus musculus with 54 samples.

Results

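The genes described here build, fill and hold together the hyaluronan matrix of the ovulating follicle, or make the sugar nucleotides from which hyaluronan is assembled. They are *Has2*, *Tnfaip6*, *Ptx3*, *Vcan*, *Cd44*, *Gfpt1*, *Gfpt2*, *Ugdh* and *Uap1*, taken by symbol, and all 9 were found among the 25149 genes of the count and TPM tables. RNA was sequenced from single microdissected sides of follicles that came from 14 to 16 day-old CD-1 mice, grew for 8 days in an alginate hydrogel and then spent 12 h in maturation medium. The medium held serum, EGF and recombinant FSH in every group, and only the post-hCG groups also received hCG, which acts through the luteinizing hormone receptor. The groups were the putative unruptured side (n = 15) and the putative ruptured side (n = 14) of follicles without hCG, and the unruptured side (n = 12) and the ruptured side (n = 13) post-hCG. Without hCG no side had ruptured, so "putative" marks a side named from antral swelling with machine-learning image guidance, and the labels do not say which pieces came from the same follicle or mouse. The p-values therefore measure the spread between these pieces.

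Hyaluronan is a long sugar chain that a synthase at the cell surface, most often HAS2 in the ovary, extends from UDP-N-acetylglucosamine and UDP-glucuronate. Before ovulation the chain accumulates among cumulus and granulosa cells, where TNFAIP6 transfers heavy chains of inter-alpha-inhibitor onto it, PTX3 cross-links those heavy chains, VCAN binds along the chain and CD44 is the main receptor. GFPT1 and GFPT2 catalyse the first and rate-limiting step of the hexosamine pathway, UAP1 its last step to UDP-N-acetylglucosamine, and UGDH makes UDP-glucuronate.

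The 54 libraries held between 1497138 and 2834794 counts, with a median of 2157135. By label the tissue is a cumulus-oocyte complex, whereas the study's methods state that these complexes were removed. The summed TPM of 10 oocyte markers had medians of 0.2 (putative unruptured), 0.155 (putative ruptured), 0.15 (unruptured post-hCG) and 0 (ruptured post-hCG). It stood apart in putative unruptured replicate 1, at 204 TPM, and putative ruptured replicate 12, at 32.4 TPM, so results that rest on these libraries are also given without them. No list of cumulus cell markers was used, so remaining cumulus cells were not examined. The summed TPM of 10 theca and stroma markers ran from 29.6 to 2808 (533 at the median) on the putative unruptured side, against 4.12 to 574 (35.7 at the median) on the putative ruptured side. With hCG it ran from 76.7 to 1413 (355 at the median) on the unruptured side, against 1.10 to 56.1 (4.88 at the median) on the ruptured side, where *Cyp17a1*, *Insl3*, *Lum*, *Pdgfra* and *Tcf21* had a median of 0. In the same order, 9, 5, 7 and 1 of these 10 markers had a median above 1 TPM. *Cyp17a1* also had a median of 0 on the unruptured side post-hCG, as *Tcf21* had on the putative ruptured side. The summed TPM of 10 granulosa markers ran from 846 to 5519 (2668 at the median), from 3577 to 17581 (10554 at the median), from 908 to 1954 (1417 at the median) and from 775 to 1477 (1212 at the median), and *Amh*, one of them, had a median of 0 in every group. *Inha* held most of this sum, with medians of 2594, 9027, 1333 and 1051 TPM. Not all granulosa markers followed it, as *Nr5a2* had medians of 11.4, 23.2, 52.7 and 58.4 TPM. By the edgeR test given below, 2 of 9 tested rose and 7 fell with hCG on the unruptured side, against 25.4% and 27.7% of all genes. On the ruptured side 1 of 9 rose and 7 fell, against 29.7% and 30.4%. The sum of 6 immune markers had medians of 30.8, 0.63, 12.7 and 0.75 TPM. It was mostly *Lyz2* on the unruptured sides, with medians of 29.7, 0, 10.5 and 0 TPM, and no other marker of this list had a median above 1 TPM. In such bulk pieces, fewer cells of a type and less RNA per cell cannot be told apart, and the part of these cell types in the differences below was not tested unless stated.

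Without hCG, 5 of the 9 genes were higher on the putative ruptured side (*Has2*, *Gfpt2*, *Tnfaip6*, *Vcan* and *Gfpt1*), 1 was lower (*Ugdh*), *Cd44* and *Uap1* did not pass the test, and *Ptx3* was too low to be tested. A gene is called here where edgeR's quasi-likelihood test gave a false discovery rate (FDR) under 0.05 over all genes tested, and 17.8% of 9063 genes were called in this comparison, 8.84% higher and 8.96% lower on the putative ruptured side. Post-hCG only *Vcan* was higher on the ruptured side, *Gfpt2* and *Ugdh* were lower, *Tnfaip6*, *Cd44*, *Gfpt1* and *Uap1* did not pass, and *Has2* and *Ptx3* were too low to be tested, against 21.4% of 8585 genes, 10% higher and 11.3% lower. With hCG, *Vcan*, *Tnfaip6* and *Gfpt2* rose and *Cd44* fell on the unruptured side, where 53.1% of 9320 genes were called, 25.4% up and 27.7% down. On the ruptured side *Vcan* and *Uap1* rose, and *Cd44*, *Gfpt2* and *Ugdh* fell, where 60.1% of 8531 genes were called, 29.7% up and 30.4% down. The interaction, the side difference post-hCG minus that without hCG, passed for *Gfpt2* and *Has2*, both negative, of the 8 genes tested, against 8.91% of 10013 genes, 4.25% positive and 4.65% negative. Comparisons that share a group share its libraries and are not independent. Libraries with and without hCG also differ in the letter of their column names, whose meaning is not given, so the medium cannot be told apart from it.

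**Figure D1:**
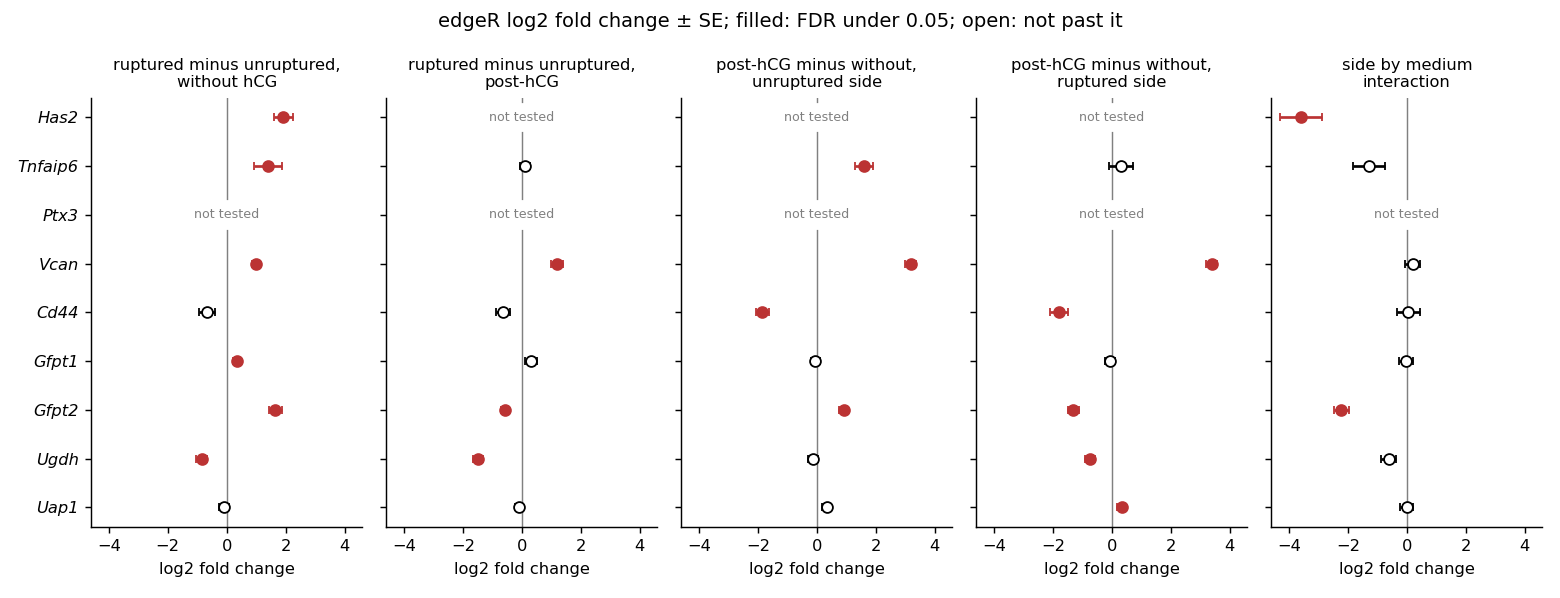
Fold change of the 9 genes in the 5 comparisons. Points are edgeR log2 fold changes and bars are standard errors; filled points passed an FDR of 0.05. Gfpt2 lies right of 0 in the side comparison without hCG (1.65) and left of 0 in the one post-hCG (-0.58), while Vcan lies right of 0 in all 4 comparisons of groups.

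The direction of calls over all genes depended on the scaling. When libraries were scaled by their totals alone, the median log2 fold change of all genes moved from 0.011 to -0.14 between the sides post-hCG, from -0.030 to -0.25 for hCG on the unruptured side, from -0.0012 to -0.33 for hCG on the ruptured side and from -0.013 to -0.11 for the interaction. The calls moved from 862 higher and 971 lower to 397 and 1830, from 2365 and 2582 to 1455 and 3844, from 2532 and 2597 to 1376 and 4242, and from 426 and 466 to 230 and 660. Between the sides without hCG they moved from 801 and 812 to 585 and 905, with a median log2 fold change of -0.057. The fold changes below are relative to TMM, and library totals are named again where they changed a gene's call.

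Per transcript length, *Vcan* ranged from the third highest of the 9 genes on the putative unruptured side to the highest by far post-hCG. On the putative unruptured side the mean log2(TPM + 1) was 5.55 for *Cd44*, 4.61 for *Ugdh*, 4.36 for *Vcan*, 2.74 for *Gfpt2*, 2.49 for *Uap1*, 2.31 for *Tnfaip6*, 1.57 for *Gfpt1*, 0.51 for *Has2* and 0.28 for *Ptx3*. The neighbours *Ugdh* and *Vcan*, *Gfpt2* and *Uap1*, *Uap1* and *Tnfaip6*, *Tnfaip6* and *Gfpt1*, and *Has2* and *Ptx3* lay closer than the larger SD of the pair. On the putative ruptured side the order was *Vcan*, *Cd44*, *Gfpt2*, *Ugdh*, *Tnfaip6*, *Uap1*, *Gfpt1*, *Has2* and *Ptx3*, and only the gaps from *Uap1* to *Gfpt1* (0.64) and from *Has2* to *Ptx3* (0.68) exceeded the larger SD, while *Tnfaip6* had an SD of 1.43. On the unruptured side post-hCG it was *Vcan*, *Ugdh*, *Tnfaip6*, *Cd44*, *Gfpt2*, *Uap1*, *Gfpt1*, *Has2* and *Ptx3*, and the neighbours *Tnfaip6* and *Cd44* (gap 0.0079) and *Has2* and *Ptx3* (gap 0.024) lay closer than their SD. On the ruptured side post-hCG it was *Vcan*, *Tnfaip6*, *Cd44*, *Ugdh*, *Gfpt2*, *Uap1*, *Gfpt1*, *Ptx3* and *Has2*, with *Vcan* 4.55 above *Tnfaip6*, and the neighbours *Cd44* and *Ugdh* (gap 0.040), *Ugdh* and *Gfpt2* (gap 0.11) and *Ptx3* and *Has2* (gap 0.22) lay closer than their SD.

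**Figure D2:**
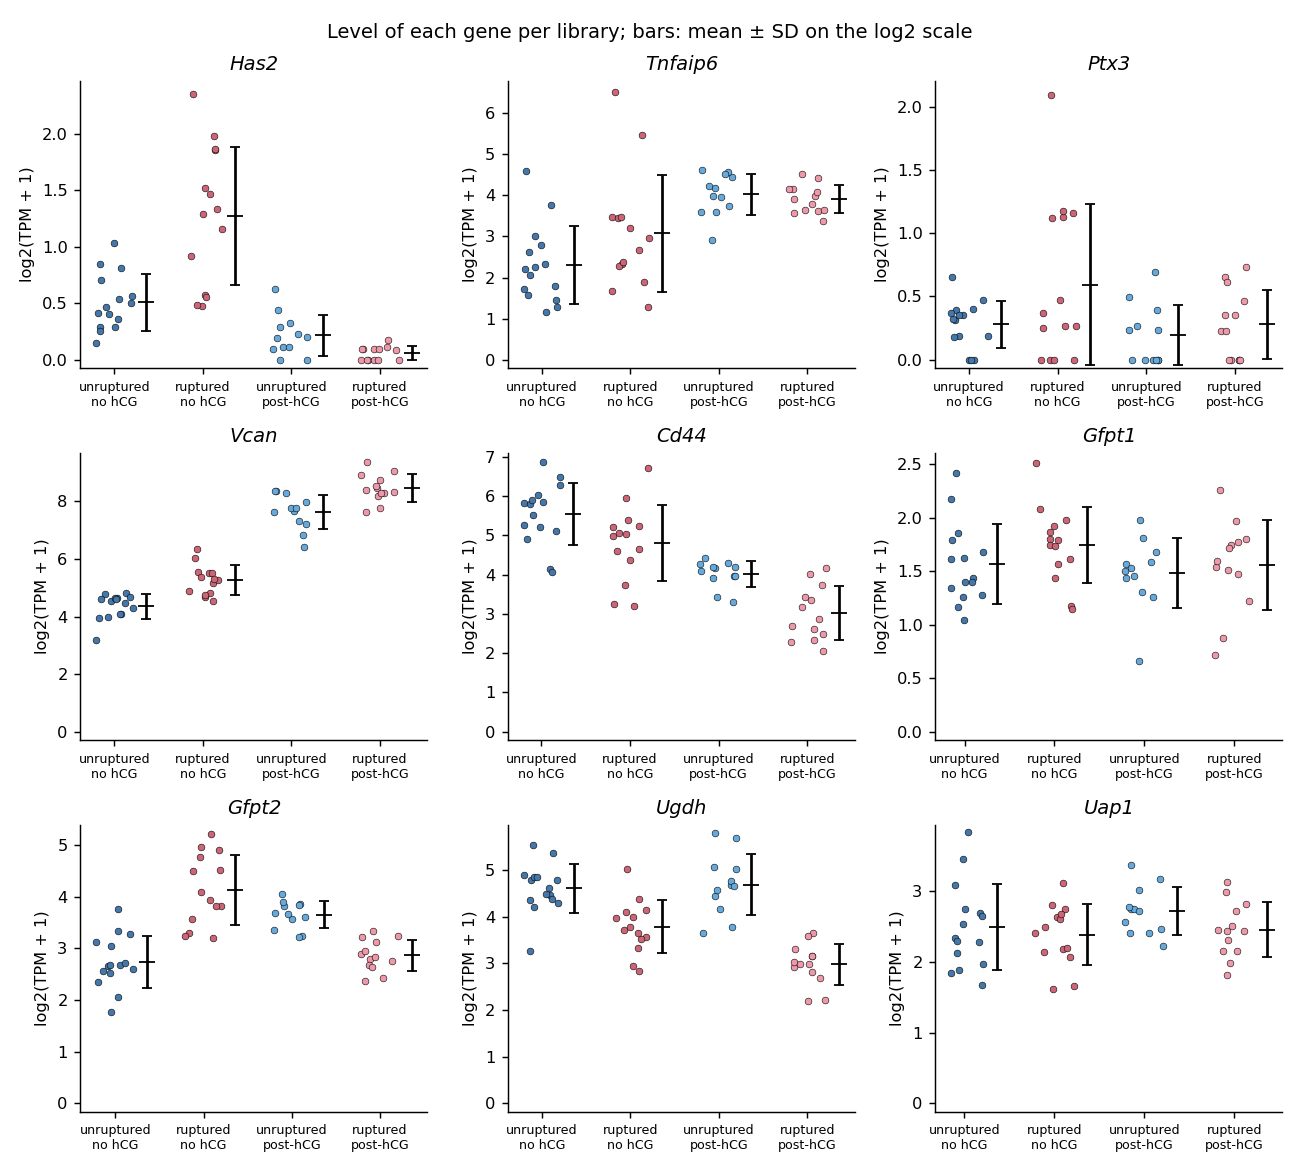
Level of each gene in each library, as log2(TPM + 1), in the 4 groups of 15, 14, 12 and 13 libraries. Points are libraries and bars show the group mean ± SD, cut at the lower axis limit where they run below it. Vcan shows no overlap between media on either side, and Has2 none on the ruptured side. The share of all genes without overlap was not counted.

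*Has2*, which encodes the hyaluronan synthase (GRCm38 chromosome 15, 56665627 to 56694539, minus strand), was highest on the putative ruptured side and lowest on the ruptured side post-hCG. Its TPM ran from 0.11 to 1.05 (0.38 at the median) on the putative unruptured side, against 0.39 to 4.09 (1.49 at the median) on the putative ruptured side. With hCG it ran from 0 to 0.54 (0.145 at the median) on the unruptured side, against 0 to 0.13 (0.06 at the median) on the ruptured side. All 14 putative ruptured libraries lay above the median of the putative unruptured side and 9 above its highest library, whereas all 13 ruptured libraries post-hCG lay below the lowest putative ruptured one. How often groups were separated in this way over all genes was not counted, for *Has2* or for the genes below. These levels rest on few reads, 111 counts in 15 libraries, 295 in 14, 28 in 12 and 8 in 13, and 6 of the 13 ruptured libraries post-hCG held none. Pooled by group, that was 12.0 CPM, counts scaled to equal library totals (95% exact Poisson interval 10.6 to 13.4) on the putative ruptured side and 0.275 (0.119 to 0.542) on the ruptured side post-hCG, and these intervals cover counting error only.

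Without hCG, *Has2* was higher on the putative ruptured side by 1.92 ± 0.32 (log2 fold change ± SE, edgeR FDR = 6.79e-05). The low-count filter asks for about 10 counts in a set share of libraries, which *Has2* met through the putative ruptured side, with 21.1 counts per library against 7.40, so passing it already favoured a difference. Without the 2 libraries with oocyte markers, one of which was the highest *Has2* library, *Has2* no longer passed that filter, and with no filter its difference was 1.64 (edgeR FDR = 2.94e-04). In limma on log2(TPM + 1) the difference was 0.76 (FDR = 0.00264). In the other comparisons of groups *Has2* was below the filter. With no filter its side difference post-hCG was -1.67 (edgeR FDR = 0.0416), on 28 and 8 counts, and this call was lost in DESeq2 (-1.87, adjusted p = 0.0511) and in the joint fit of the 4 groups (-1.68, edgeR FDR = 0.0612). With no filter it was lower with hCG on the unruptured side (log2 fold change -1.32, edgeR FDR = 0.00848), as it was in DESeq2 and the joint fit. On the ruptured side it was lower with hCG by a log2 fold change of -4.87 (edgeR FDR = 1.88e-11). The interaction was -3.59 ± 0.72 (edgeR FDR = 6.62e-04), again in a fit whose filter *Has2* passed through the putative ruptured side. It was -3.58 with no filter (edgeR FDR = 9.04e-04) and -3.35 without the 2 libraries with oocyte markers (edgeR FDR = 9.67e-04).

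*Has2* was not the only synthase detected. *Has1* had medians of 0.25, 0.075, 0.58 and 0 TPM and *Has3* medians of 0.06, 0, 0.125 and 0.12 TPM in the same order of groups, and both fell below the low-count filter in every comparison. Per transcript length, *Has2* made up 55.0% ± 27.4 (SD, n = 15) of the summed *Has1*, *Has2* and *Has3* TPM on the putative unruptured side and 88.9% ± 13.3 (SD, n = 14) on the putative ruptured side. Post-hCG its share was 20.5% ± 19.7 (SD, n = 12) on the unruptured side and 28.4% ± 37.5 (SD, n = 11) on the ruptured side, where 2 of 13 libraries held no count of any synthase. That last group held 8 counts of *Has2*, 6 of *Has1* and 21.1 of *Has3* in all, so a few reads set the share of a library. The share was 33.8 points higher on the putative ruptured side (two-sided permutation test, adjusted p = 6.40e-04 over 8 share tests), and its difference with hCG was -34.6 points on the unruptured side (adjusted p = 0.00121) against -60.4 points on the ruptured side (adjusted p = 2.13e-04, permutation tests). The 2 sides post-hCG differed by 7.95 points (permutation test, adjusted p = 0.526), within the spread between libraries of 0% to 100% on the ruptured side.

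**Figure D3:**
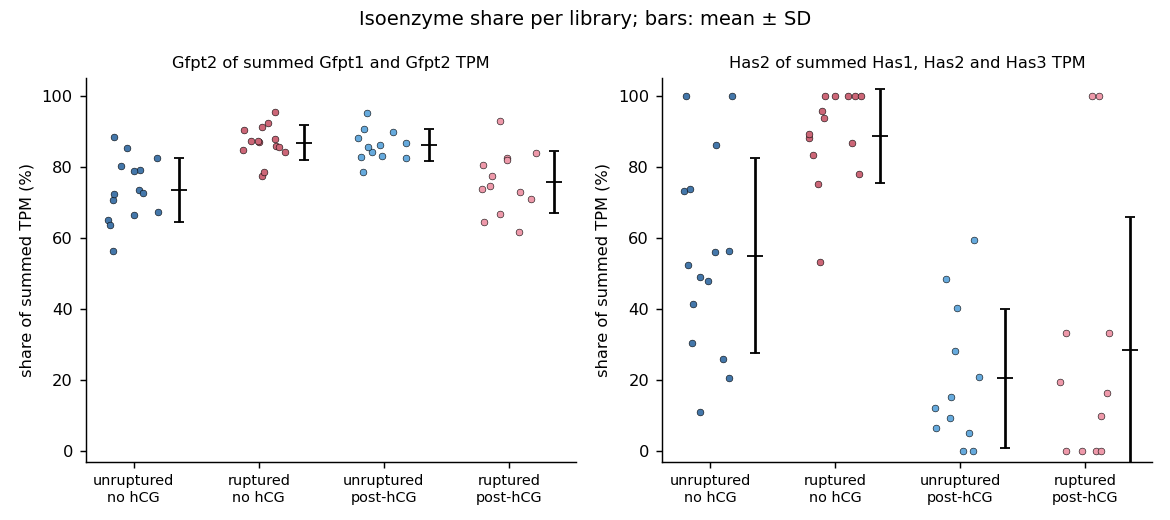
Share of Gfpt2 in the summed Gfpt1 and Gfpt2 TPM, and of Has2 in the summed Has1, Has2 and Has3 TPM, in percent per library. Points are libraries and bars show the group mean ± SD. The Gfpt2 share is higher on the putative ruptured side without hCG (86.9% against 73.6%) and lower on the ruptured side post-hCG (75.8% against 86.2%).

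*Tnfaip6*, whose product loads heavy chains onto hyaluronan (chromosome 2, 52038009 to 52056686, plus strand), rose with hCG on the unruptured side. Its TPM ran from 1.22 to 23.1 (3.64 at the median) on the putative unruptured side, against 1.42 to 90.4 (6.06 at the median) on the putative ruptured side, and with hCG from 6.55 to 23.4 (15.9 at the median) on the unruptured side, against 9.30 to 21.8 (14.1 at the median) on the ruptured side. All 12 unruptured and all 13 ruptured libraries post-hCG exceeded the median of their side without hCG, but few exceeded its highest library (1 and 0). On the unruptured side hCG raised *Tnfaip6* by 1.60 ± 0.31 (edgeR FDR = 7.50e-05), with a range of 1.36 to 1.99 over the alternatives. On the ruptured side the log2 fold change was 0.32 ± 0.41 (edgeR FDR = 0.511), and this value depended on replicate 4 of the putative ruptured side, which held 44.3% of that group's counts. Without replicate 4 it was 0.95 (edgeR FDR = 0.0100), DESeq2 gave 0.94 (adjusted p = 0.0184), and library totals gave -0.084 (edgeR FDR = 0.869).

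The side difference of *Tnfaip6* without hCG, 1.40 ± 0.48 (edgeR FDR = 0.0410), rested on the same few libraries. It was 0.76 without putative ruptured replicate 4 (edgeR FDR = 0.218), 1.15 without replicate 2 of that group (edgeR FDR = 0.0956), 1.78 without putative unruptured replicate 5 (edgeR FDR = 0.00821) and 1.35 without the libraries with oocyte markers (edgeR FDR = 0.0637). Post-hCG the sides differed by 0.12 ± 0.17 (edgeR FDR = 0.692), with values of -0.036 under library totals and -0.11 under limma. The interaction was -1.28 ± 0.55 (edgeR FDR = 0.138), -0.63 without putative ruptured replicate 4 (edgeR FDR = 0.451) and -1.65 without putative unruptured replicate 5 (edgeR FDR = 0.0351).

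The libraries that led *Tnfaip6* also led other genes of the matrix. Putative ruptured replicate 4 was the highest of its group for *Tnfaip6* (90.4 TPM), *Cd44* (105.1 TPM), *Ugdh* (31.5 TPM) and *Vcan* (81.4 TPM), and replicate 2 was the second for *Tnfaip6* (43.5 TPM), *Cd44* (61.0 TPM), *Vcan* (64.6 TPM) and *Gfpt2* (30.2 TPM). Putative unruptured replicate 5 was the highest for *Tnfaip6* (23.1 TPM), *Gfpt2* (12.6 TPM) and *Ugdh* (45.3 TPM), and replicate 11 was the next for all 3 (12.7, 9.05 and 40.3 TPM) and the highest for *Cd44* (116 TPM). In these 4 libraries the oocyte markers summed to between 0 and 0.13 TPM, which does not show whether cumulus cells remained in them.

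*Ptx3*, a long pentraxin (chromosome 3, 66219910 to 66225805, plus strand), was near the limit of detection. It had 23, 47, 9 and 18 counts in all in the 4 groups, in the order used above, and medians of 0.25, 0.245, 0.09 and 0.17 TPM. Replicate 2 of the putative ruptured side stood highest at 3.27 TPM and 15 counts, and 3, 4, 6 and 5 libraries of the groups held none. It passed no low-count filter, and with no filter its side difference without hCG was 1.42 (edgeR FDR = 0.0936) and its interaction -0.55 (edgeR FDR = 0.959), so a difference was not detectable at this depth.

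*Vcan*, the large hyaluronan-binding proteoglycan versican (chromosome 13, 89655312 to 89742509, minus strand), rose with hCG on both sides. Its TPM ran from 8.01 to 27.0 (22.5 at the median) on the putative unruptured side, against 84.4 to 329 (209 at the median) on the unruptured side post-hCG. On the ruptured side it ran from 22.5 to 81.4 (38.1 at the median) without hCG and from 199 to 666 (340 at the median) post-hCG. The media did not overlap on either side, and the medians were 9.30 and 8.92 times higher with hCG. The log2 fold change was 3.18 ± 0.17 on the unruptured side (edgeR FDR = 3.06e-16) and 3.39 ± 0.19 on the ruptured side (edgeR FDR = 3.74e-16), larger in size than for 98.4% and 97.5% of the genes tested. *Vcan* was also higher on the ruptured side, by 1.00 ± 0.13 without hCG (edgeR FDR = 3.03e-06), where 11 of 14 libraries lay above the highest putative unruptured one, and by 1.20 ± 0.21 post-hCG (edgeR FDR = 7.28e-05), where 7 of 13 did. The interaction was 0.20 ± 0.25 (edgeR FDR = 0.695) and changed sign under limma (-0.083), so the side difference of *Vcan* was not shown to depend on the medium.

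*Cd44*, the hyaluronan receptor (chromosome 2, 102811141 to 102901665, minus strand), fell with hCG as *Vcan* rose. Its TPM ran from 15.9 to 116 (55.0 at the median) on the putative unruptured side, against 8.25 to 105.1 (31.2 at the median) on the putative ruptured side. With hCG it ran from 8.94 to 20.4 (16.6 at the median) on the unruptured side, against 3.17 to 17.2 (6.28 at the median) on the ruptured side. It fell by 1.84 on the log2 scale (SE 0.22, edgeR FDR = 2.33e-08) on the unruptured side and by 1.80 (SE 0.31, edgeR FDR = 6.82e-06) on the ruptured side, where all 13 libraries lay below the putative ruptured median and 8 below its lowest library. The sides differed by -0.66 ± 0.27 without hCG (edgeR FDR = 0.0885) and by -0.62 ± 0.23 post-hCG (edgeR FDR = 0.0559), both short of the threshold. Without putative ruptured replicate 4 the first became -0.86 (edgeR FDR = 0.0156), and the second passed with library totals (-0.79, edgeR FDR = 0.00751) and in limma on log2(TPM + 1) and log2(TPM + 0.1) (-1.0025 and -1.11, FDR = 6.17e-04 and 6.93e-04). Both passed with the replicate number as a factor (-0.85 and -0.76, edgeR FDR = 0.0460 and 0.0138). Post-hCG 8 of 13 ruptured libraries lay below the lowest unruptured one in TPM. The theca and stroma sum and the immune sum given above, the latter mostly *Lyz2*, were also lower on the ruptured side, and their part was not tested.

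*Gfpt2* changed in opposite directions on the 2 sides, whereas *Gfpt1* changed little. Both encode the glutamine-using enzyme that commits fructose phosphate to the hexosamine pathway, from chromosome 11, 49794178 to 49838613 (*Gfpt2*, plus strand) and chromosome 6, 87042846 to 87092197 (*Gfpt1*, plus strand). The TPM of *Gfpt2* ran from 2.43 to 12.6 (5.39 at the median) on the putative unruptured side, against 8.19 to 36.4 (15.1 at the median) on the putative ruptured side. With hCG it ran from 8.38 to 15.6 (11.8 at the median) on the unruptured side, against 4.15 to 9.15 (6.10 at the median) on the ruptured side. The high groups were thus the putative ruptured side without hCG and the unruptured side with it. Without hCG all 14 putative ruptured libraries exceeded the putative unruptured median and 10 above its highest library, and post-hCG all 13 ruptured libraries lay below the unruptured median and 10 below its lowest library.

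The log2 fold change of *Gfpt2* toward the ruptured side was 1.65 ± 0.21 without hCG (edgeR FDR = 2.23e-06) and -0.58 ± 0.12 post-hCG (edgeR FDR = 7.91e-04). With hCG, *Gfpt2* rose by 0.91 ± 0.16 on the unruptured side (edgeR FDR = 1.34e-05) and fell by 1.31 on the ruptured side (SE 0.20, edgeR FDR = 8.55e-07). The interaction was -2.22 ± 0.26 (edgeR FDR = 6.11e-08), the 2nd smallest p among 10013 genes, and ran from -2.40 to -2.10 over 15 alternatives, with the FDR under the threshold in each. The interactions of *Gfpt2* and *Has2* were singled out with earlier results of these data known. This rank and these refits therefore describe the difference and are no independent test of it. The granulosa marker sum had medians of 2668 and 10554 TPM without hCG (unruptured, then ruptured side) and of 1417 and 1212 TPM post-hCG, most of it from *Inha*. Of the single granulosa markers, 8 of 9 tested were higher on the putative ruptured side and 0 lower. Over all genes, 8.84% were higher and 8.96% lower there. Post-hCG 3 of 5 tested markers were higher on the ruptured side and 0 lower, unlike the sum. The shares of all genes were then 10% higher and 11.3% lower. The part of granulosa cells in the *Gfpt2* result was not tested.

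The TPM of *Gfpt1* ran from 1.06 to 4.35 (1.71 at the median) and from 1.22 to 4.72 (2.41 at the median) without hCG (putative unruptured, then putative ruptured side), and from 0.58 to 2.95 (1.87 at the median) and from 0.64 to 3.79 (2.02 at the median) post-hCG. The 4 groups overlapped almost wholly. *Gfpt1* was 0.34 ± 0.12 higher on the putative ruptured side (edgeR FDR = 0.0478), a call that held in 3 of 15 alternatives and was lost in DESeq2 (adjusted p = 0.0689) and with library totals (0.27, edgeR FDR = 0.2005). The other differences were 0.31 ± 0.20 between the sides post-hCG (edgeR FDR = 0.295), -0.047 ± 0.16 and -0.066 ± 0.16 for hCG on the unruptured and ruptured sides (edgeR FDR = 0.825 and 0.736, the latter -0.39 with library totals at edgeR FDR = 0.0404), and -0.022 ± 0.23 for the interaction (edgeR FDR = 0.972).

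*Gfpt2* was the larger part of the enzyme's transcripts in every library, and its share followed the same crossed pattern. It made up 73.6% ± 8.91 (SD, n = 15) of the summed *Gfpt1* and *Gfpt2* TPM on the putative unruptured side and 86.9% ± 4.86 (SD, n = 14) on the putative ruptured side. Post-hCG it made up 86.2% ± 4.44 (SD, n = 12) on the unruptured side and 75.8% ± 8.74 (SD, n = 13) on the ruptured side, and the lowest share in any library was 56.5%. The share was 13.3 points higher on the putative ruptured side (adjusted p = 2.13e-04) and differed by -10.4 points on the ruptured side post-hCG (adjusted p = 0.00121, two-sided permutation tests). With hCG it rose by 12.6 points on the unruptured side (adjusted p = 2.13e-04) and fell by 11.1 points on the ruptured side (adjusted p = 6.40e-04, two-sided permutation tests). Shares of counts in place of TPM gave the same calls.

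The promoter stretches of both glutamine enzymes and of *Tnfaip6* are shown to set *Gfpt2*, whose interaction passed, beside *Gfpt1*, whose interaction did not, and *Tnfaip6*, which rose with hCG on the unruptured side. They come from the RefSeq promoter table of GRCm38.p6, which matched 8 of the 9 genes, and *Has2* had no entry. Each is the plus strand before the annotated start, in lower case, with capitals for matches on either strand to 8 motifs. These were TGACGTCA for the cAMP response element, TGACG for the core that is also part of it, TGANTCA for AP-1 sites, TTGCNNAA for C/EBP sites, GGGCGG for the GC box, CCAAT for the CCAAT box, TATAAA for the TATA box and ACGTG for the core of the hypoxia response element.
*Gfpt2*, chr11:49793905-49794154: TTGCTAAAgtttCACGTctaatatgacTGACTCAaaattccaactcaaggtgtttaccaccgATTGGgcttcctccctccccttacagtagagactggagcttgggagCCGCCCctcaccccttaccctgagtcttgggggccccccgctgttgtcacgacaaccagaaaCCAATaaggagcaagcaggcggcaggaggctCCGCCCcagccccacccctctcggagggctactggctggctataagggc
*Gfpt1*, chr6:87042596-87042845: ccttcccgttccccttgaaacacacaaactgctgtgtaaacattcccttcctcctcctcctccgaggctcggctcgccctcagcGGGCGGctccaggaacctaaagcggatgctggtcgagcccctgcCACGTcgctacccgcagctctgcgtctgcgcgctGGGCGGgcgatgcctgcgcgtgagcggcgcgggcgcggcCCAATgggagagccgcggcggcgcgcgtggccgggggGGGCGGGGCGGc
*Tnfaip6*, chr2:52037863-52038008: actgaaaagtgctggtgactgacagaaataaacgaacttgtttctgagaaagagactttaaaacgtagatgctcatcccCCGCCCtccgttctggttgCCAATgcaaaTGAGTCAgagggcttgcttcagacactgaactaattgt

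Of the letters searched, the 250 bases of *Gfpt2* held an AP-1 match, a C/EBP match, a hypoxia element core, 2 GC boxes and 2 CCAAT boxes, and those of *Gfpt1* held a hypoxia element core, 4 GC boxes, of which the last 2 overlap, and a CCAAT box. The stretch of *Tnfaip6* stops at its first annotated exon and shows an AP-1 match, a GC box and a CCAAT box, and its whole window held a further CCAAT box. Over 32851 promoter windows of 250 bases, the AP-1 letters occurred in 6.75%, C/EBP in 9.56%, the GC box in 32.7%, CCAAT in 33.8%, the hypoxia element core in 16.6%, the cAMP element core in 17.8%, the full cAMP element in 1.55% and TATAAA in 12.4%. Among the 8 genes with a window, 2 held AP-1 letters, 3 C/EBP, 6 a GC box, 5 CCAAT, 3 the hypoxia element core, 1 the cAMP element core (*Uap1*), and none the full cAMP element or TATAAA. A match describes letters and does not show that a factor binds.

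*Ugdh*, which makes UDP-glucuronate (chromosome 5, 65413221 to 65435949, minus strand), was lower on the ruptured side in both media. Its TPM ran from 8.67 to 45.3 (23.5 at the median) on the putative unruptured side, against 6.10 to 31.5 (12.4 at the median) on the putative ruptured side, and with hCG from 11.5 to 54.4 (24.4 at the median) on the unruptured side, against 3.57 to 11.6 (6.96 at the median) on the ruptured side. Post-hCG 12 of 13 ruptured libraries lay below the lowest unruptured one. The side difference was -0.85 ± 0.19 without hCG (edgeR FDR = 0.00128) and -1.48 ± 0.17 post-hCG (edgeR FDR = 1.64e-07), and the interaction of -0.62 ± 0.26 did not pass (edgeR FDR = 0.128), though it did under limma on log2(TPM + 1) (-0.88, FDR = 0.0486). With hCG, *Ugdh* fell by 0.74 on the log2 scale on the ruptured side (SE 0.18, edgeR FDR = 5.45e-04), and the value on the unruptured side was -0.12 ± 0.18 (edgeR FDR = 0.585). The theca and stroma sum was lower on the ruptured side in both media as well, and its part in the *Ugdh* difference was not tested.

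*Uap1*, which makes UDP-N-acetylglucosamine (chromosome 1, 170141938 to 170174957, minus strand), was the steadiest of the group with *Gfpt1*. Its TPM had medians of 4.06, 4.46, 5.64 and 4.42 in the order used above, within a range over all libraries of 2.06 to 13.2, and all groups overlapped. The sides differed by -0.091 ± 0.16 without hCG and -0.095 ± 0.14 post-hCG (edgeR FDR = 0.749 and 0.682). The difference with hCG was 0.33 ± 0.15 on the unruptured side (edgeR FDR = 0.0583) and 0.33 ± 0.14 on the ruptured side (edgeR FDR = 0.0457). The latter was lost in DESeq2 (adjusted p = 0.0679) and was 0.013 with library totals (edgeR FDR = 0.943).

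Within a group, *Has2* was compared with *Tnfaip6*, *Ptx3*, *Vcan*, *Gfpt2* and *Ugdh* over libraries, on log2(TPM + 1), in 20 relations. None passed adjustment, and the lowest adjusted permutation p was 0.433 for Pearson's r and 0.318 for Spearman's rho. *Has2* and *Gfpt2* on the putative ruptured side had r = 0.59 (permutation p = 0.0277, adjusted 0.433) and rho = 0.58 (permutation p = 0.0342, adjusted 0.318, n = 14), with r = 0.48 without the 2 libraries farthest from the *Has2* median. Over all 54 libraries and 12298 other genes with a mean of at least 1 CPM, the genes whose log2 CPM was most like *Has2* were *Dab2* (r = 0.90), *Cxcl5* (0.88), *Prdm1* (0.86), *Tenm4* (0.85) and *Nupr1* (0.85). With group means removed, these r fell to 0.54, 0.57, 0.37, 0.44 and 0.43. Most like *Gfpt2* were *Rgs2* (r = 0.79), *Hif1a* (0.78), *Ptges* (0.75), *Mamld1* (0.70) and *Cry2* (0.66), with 0.56, 0.66, 0.32, 0.37 and 0.39 after group means were removed. Between *Has2* and *Gfpt2* themselves r was 0.48, and 0.29 with group means removed, and between *Gfpt2* and *Tnfaip6* it was 0.42 and 0.59. These points share 4 group means and the library scaling, and are given as a description.

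Other genes of the same pathways were taken from 9 lists of 77 genes, of which 73 were in the tables. Between the sides, 6 rose and 5 fell toward the putative ruptured side of 39 tested, and 5 rose and 10 fell toward the ruptured side post-hCG of 38 tested. With hCG, 14 rose and 10 fell on the unruptured side, and 16 rose and 13 fell on the ruptured side, of 40 tested on each. In the interaction 1 was positive and 3 were negative of 42. Over all genes, 17.8%, 21.4%, 53.1%, 60.1% and 8.91% were called in these 5 comparisons, and with hCG 25.4% rose and 27.7% fell on the unruptured side and 29.7% rose and 30.4% fell on the ruptured side. Their median log2 fold change was -0.034, -0.097, -0.098, 0.073 and -0.13, against -0.0058, 0.011, -0.030, -0.0012 and -0.013 for all genes tested. The lists of other synthases and of other pentraxins (*Crp*, *Apcs*, *Nptx1*, *Nptx2* and *Nptxr*) had no gene above the low-count filter.

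**Figure D4:**
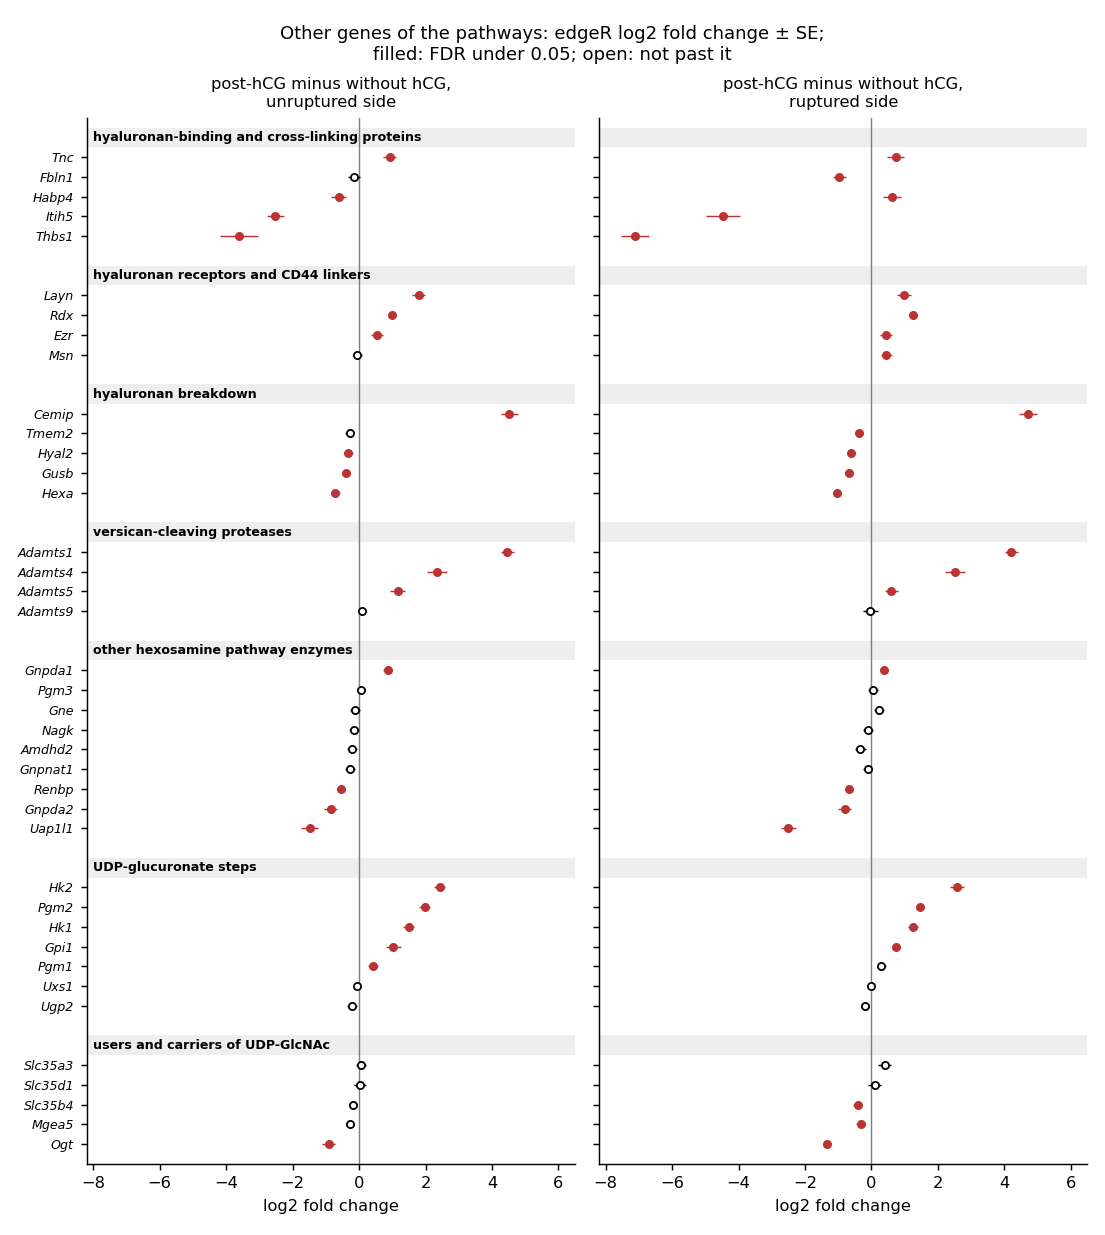
Response to hCG of the 39 listed pathway genes tested on both sides, as edgeR log2 fold change ± SE, on the unruptured side (left) and the ruptured side (right). Filled points passed an FDR of 0.05; open points did not. Cemip and Adamts1 lie farthest right and Thbs1 farthest left on both sides.

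Of the proteases that cleave versican, 3 of 4 tested genes rose with hCG on each side, where 25.4% and 29.7% of all genes rose. *Adamts1* went from medians of 7.53 and 15.7 TPM (unruptured, then ruptured side) to 191 and 283 TPM post-hCG, by 4.46 ± 0.20 (edgeR FDR = 5.17e-18) and 4.21 ± 0.19 (edgeR FDR = 1.59e-18). *Adamts4* rose by 2.34 ± 0.29 and 2.51 ± 0.30 (edgeR FDR = 5.20e-08 and 1.04e-08), and *Adamts5* by 1.17 ± 0.23 and 0.59 ± 0.19 (edgeR FDR = 5.80e-05 and 0.00791). *Adamts1* was also higher on the ruptured side, by 1.19 ± 0.15 without hCG and 0.92 ± 0.21 post-hCG (edgeR FDR = 1.80e-06 and 0.00131), as was *Adamts5*, by 1.27 ± 0.21 and 0.68 ± 0.21 (edgeR FDR = 6.81e-05 and 0.0161). *Adamts9* was lower there post-hCG (-0.41 ± 0.12, edgeR FDR = 0.0123).

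Among the genes of hyaluronan breakdown, *Cemip*, which binds hyaluronan and is needed for its depolymerisation, stood at medians of 1.04 and 0.855 TPM without hCG and 28.0 and 23.2 TPM post-hCG. It rose by 4.52 ± 0.25 on the unruptured side, against 4.71 ± 0.27 on the ruptured side (edgeR FDR = 5.29e-16 and 3.76e-16). The lysosomal enzyme genes *Hexa* (-0.71 ± 0.13 and -1.02 ± 0.11, edgeR FDR = 2.91e-05 and 1.26e-09) and *Gusb* (-0.40 ± 0.11 and -0.69 ± 0.11, edgeR FDR = 0.00271 and 3.93e-06) fell. Of 5 tested, 1 rose and 3 fell on the unruptured side and 1 rose and 4 fell on the ruptured side, where 27.7% and 30.4% of all genes fell. Between the sides *Hexa* was higher on the putative ruptured side by 0.39 ± 0.13 (edgeR FDR = 0.0314), and none of the 5 passed post-hCG.

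Genes for hyaluronan-binding and cross-linking proteins were mostly below the filter, with 4 to 6 of 20 tested. *Thbs1*, a matrix glycoprotein that binds TNFAIP6, had medians of 271 and 463 TPM without hCG and 6.13 and 3.43 TPM post-hCG, with log2 fold changes of -3.61 ± 0.58 and -7.11 ± 0.42 (edgeR FDR = 4.33e-06 and 6.99e-16), a side difference post-hCG of -2.75 ± 0.56 (edgeR FDR = 4.30e-04) and an interaction of -3.51 ± 0.65 (edgeR FDR = 2.71e-04). *Itih5*, a heavy chain gene of the inter-alpha-inhibitor family, fell with hCG by 2.52 (SE 0.26) and 4.47 (SE 0.50) on the log2 scale (edgeR FDR = 1.19e-09 and 2.80e-09), with an interaction of -1.96 ± 0.63 (edgeR FDR = 0.0400). Its medians were 1.11 and 0.995 TPM without hCG and 0.205 and 0.03 TPM post-hCG. Passing the low-count filter thus leaned on the groups without hCG, which favours a fall, and the interaction rests on levels near 0. *Fbln1*, the gene of fibulin 1, which binds versican, was higher on the ruptured side by 1.60 ± 0.20 without hCG (edgeR FDR = 1.80e-06) and 0.78 ± 0.16 post-hCG (edgeR FDR = 4.85e-04), and fell with hCG on the ruptured side (-0.97 ± 0.20, edgeR FDR = 8.53e-05). *Fbln2* was lower on the putative ruptured side (-1.70 ± 0.31, edgeR FDR = 2.35e-04), as was *Habp4* (-0.65 ± 0.23, edgeR FDR = 0.0458), whose interaction was 1.23 ± 0.35 (edgeR FDR = 0.0169) and which changed with hCG by -0.61 ± 0.22 on the unruptured side, against 0.62 ± 0.26 on the ruptured side (edgeR FDR = 0.0203 and 0.0392). *Tnc* rose with hCG on both sides (0.93 ± 0.19 and 0.73 ± 0.26, edgeR FDR = 1.71e-04 and 0.0148).

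Of the receptors and the linkers that tie CD44 to actin, 3 of 4 tested rose with hCG on the unruptured side and 4 of 4 on the ruptured side, against 25.4% and 29.7% of all genes. *Layn*, which encodes the hyaluronan receptor layilin, rose by 1.79 ± 0.21 and 0.98 ± 0.22 (edgeR FDR = 9.90e-09 and 3.61e-04), and *Rdx* by 0.99 ± 0.09 and 1.24 ± 0.09 (edgeR FDR = 4.57e-11 and 6.08e-14), while *Cd44* itself fell. *Ezr* rose by 0.53 ± 0.18 and 0.44 ± 0.17 (edgeR FDR = 0.0119 and 0.0247) and *Msn* by 0.44 ± 0.17 on the ruptured side (edgeR FDR = 0.0220). Toward the ruptured side, *Ezr* was higher in both media (0.76 ± 0.14 and 0.65 ± 0.20, edgeR FDR = 2.86e-04 and 0.0190) and *Msn* lower in both (-0.82 ± 0.18 and -0.32 ± 0.09, edgeR FDR = 0.00195 and 0.0119). *Layn* was lower there post-hCG (-0.67 ± 0.22, edgeR FDR = 0.0258).

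Of the remaining enzymes of the hexosamine pathway, 1 rose and 3 fell of 9 tested with hCG on the unruptured side, and 2 rose and 3 fell of 10 tested on the ruptured side, where 53.1% and 60.1% of all genes were called. *Uap1l1*, the paralog of *Uap1*, fell by 1.49 (SE 0.25) and 2.50 (SE 0.22) on the log2 scale (edgeR FDR = 6.21e-06 and 1.30e-11), from medians of 10.3 and 17.3 TPM to 3.52 and 1.59 TPM. *Gnpda1*, whose enzyme runs against the glutamine step, rose by 0.86 ± 0.13 and 0.38 ± 0.13 (edgeR FDR = 1.11e-06 and 0.00935) and was higher on the putative ruptured side by 0.76 ± 0.14 (edgeR FDR = 3.20e-04). *Gnpda2* fell on both sides (-0.85 ± 0.20 and -0.80 ± 0.20, edgeR FDR = 5.23e-04 and 9.51e-04). No gene of this list passed between the sides post-hCG.

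Enzymes on the way from glucose to UDP-glucuronate were listed with *Uxs1*, which uses it, and with *Gpi1*, which lies off that way and converts glucose phosphate to fructose phosphate. Of these genes, 5 of 7 tested rose with hCG on the unruptured side and 4 of 7 on the ruptured side, against 25.4% and 29.7% of all genes, and none fell. *Hk2* rose by 2.42 ± 0.16 and 2.58 ± 0.21 (edgeR FDR = 3.53e-14 and 1.39e-12), *Pgm2* by 1.98 ± 0.17 and 1.47 ± 0.10 (edgeR FDR = 1.19e-11 and 4.63e-14) and *Hk1* by 1.502 ± 0.17 and 1.25 ± 0.15 (edgeR FDR = 4.22e-09 and 1.17e-08). Like *Ugdh*, several were lower on the ruptured side post-hCG, namely *Gpi1* (-0.97 ± 0.12, edgeR FDR = 3.21e-07), *Pgm2* (-0.73 ± 0.12, edgeR FDR = 4.01e-05) and *Hk1* (-0.66 ± 0.12, edgeR FDR = 1.03e-04), with 4 lower and 1 higher of 7. Among all genes tested between these sides, 11.3% were lower and 10% higher on the ruptured one. Without hCG, *Gpi1* (-0.67 ± 0.22, edgeR FDR = 0.0262) and *Ugp2* (-0.59 ± 0.11, edgeR FDR = 2.98e-04) were lower there. These enzymes also serve glycolysis and glycogen synthesis.

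Of the 5 tested users and carriers of UDP-N-acetylglucosamine, 1 fell with hCG on the unruptured side and 3 fell on the ruptured side, where 27.7% and 30.4% of all genes fell. *Ogt*, which attaches the sugar to intracellular proteins, had medians of 86.2 and 96.5 TPM without hCG and 43.2 and 24.6 TPM post-hCG, and fell by 0.91 (SE 0.19) and 1.33 (SE 0.13) on the log2 scale (edgeR FDR = 1.76e-04 and 1.88e-10). The transporter gene *Slc35b4* and *Mgea5*, whose enzyme removes the same sugar, fell on the ruptured side (-0.41 ± 0.14 and -0.33 ± 0.14, edgeR FDR = 0.0114 and 0.0425). *Ogt* (-0.52 ± 0.13, edgeR FDR = 0.00529) and *Slc35b4* (-0.47 ± 0.14, edgeR FDR = 0.0157) were also lower on the ruptured side post-hCG.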

How the data were processed

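The authors amplified cDNA of single follicle sides with Smart-Seq2, made paired-end Nextera XT libraries, aligned reads to GRCm38 with HISAT2 and corrected counts for batches with ComBat-seq. The deposited estimated counts (72.2% of non-zero values exactly whole) and the deposited TPM values cover 25149 genes in 54 libraries. The counting program, the annotation, the batches and whether the tables follow the batch correction are not given in the sources used here. The column names end in a letter and a number, and no letter occurs in both media. Within a medium the sides share letters only in part. The sources used here do not say what the letters mark. Anything that differs with them cannot be told apart from the medium. All columns matched a sample.

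Here the counts were rounded to whole numbers, and genes were kept by filterByExpr at its minimum count of 10 and minimum total of 15. TMM factors set the scale. Quasi-likelihood fits in edgeR 4.0.16 (R 4.3.3) compared each pair of groups on its own libraries and tested the interaction on all of them, with FDR values by the Benjamini-Hochberg method and a threshold of 0.05. Permutation tests used 100000 resamples in scipy 1.17.1. Positions come from GENCODE for GRCm38.

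The members and lists were chosen with earlier results of these data known. The genes named are the 9 members, in each comparison up to 3 genes per list with the largest log2 fold change past the FDR, and the 5 genes most like Has2 or Gfpt2. A further listed gene is not reported here. Alternatives were RLE factors, library totals, no filter, a filter at 20 counts on average, a joint fit of the 4 groups, DESeq2 1.42.0, limma 3.58.1 on log2(TPM + 1) or log2(TPM + 0.1) for genes with a mean of 1 TPM, thinned counts, the replicate number as a factor, and fits without a library holding over 30% of its group's counts of a member. Fits without libraries over 20 TPM of oocyte markers were added after the data were seen.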

Additional observations from a re-analysis of the deposited data

Results flagged for a closer look

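The difference between the follicle sides changed with the medium for Gfpt2 and Has2, by the test of the interaction itself in edgeR. Both interactions were singled out with earlier results of these data known, so the tests are not independent of that choice. For Gfpt2 the interaction was -2.22 on the log2 scale (SE 0.26, edgeR FDR = 6.11e-08), between a side difference of 1.65 without hCG and -0.58 post-hCG. For Has2 it was -3.59 (SE 0.72, edgeR FDR = 6.62e-04), on 111, 295, 28 and 8 counts in the 4 groups. Has2 passed the low-count filter of that fit through the putative ruptured side, and with no filter the interaction was -3.58 (edgeR FDR = 9.04e-04).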

How the results depend on the processing

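Of 504 recomputed log2 fold changes of the 9 genes, 435 kept direction and side of the threshold, and of the 20 calls 17 passed under every alternative in which the gene was tested. The exceptions were Tnfaip6 and Gfpt1 between the sides without hCG and Uap1 for hCG on the ruptured side, and no called value changed sign. The number of genes called among the 9 stayed within 1.5 times in 65 of 69 refits. Between the sides without hCG it was 3 in place of 6 with thinned counts and 3 without the libraries with oocyte markers, in both of which Has2 fell below the filter. For the interaction it was 1 in place of 2 with a mean of 20 counts and 1 with thinned counts, again without Has2 in the test. Over all genes, limma called 1054 (pseudocount 1) and 1051 (pseudocount 0.1) between the sides without hCG, against 1613.

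Values that changed sign were all short of the threshold. Tnfaip6 between the sides post-hCG was -0.036 with library totals and -0.11 in both limma fits (-0.111 and -0.115), and for hCG on the ruptured side -0.084 with library totals. Ugdh for hCG on the unruptured side was 0.078 and 0.080 in limma. In the interaction, Vcan was -0.083 and -0.11 (-0.112) in limma, Cd44 was -0.11 (-0.114) with library totals and -0.26 and -0.34 in limma, and Gfpt1 was 0.0003 without the libraries with oocyte markers and 0.0084 with no filter as well. Uap1 in the interaction was 0.0057 with RLE factors, 0.016 with no filter, 0.0049 with a mean of 20 counts, 0.0002 thinned, 0.0061 in DESeq2, 0.064 without the libraries with oocyte markers and 0.074 with no filter as well, against -0.0012. Without single libraries, Gfpt1 ran from -0.072 to 0.014 for hCG on the unruptured side, and in the interaction Gfpt1 ran from -0.080 to 0.0017, Cd44 from -0.015 to 0.25 and Uap1 from -0.024 to 0.035. In limma, -0.21 was the median of all genes between the sides post-hCG, with 214 calls higher and 2166 lower. The order of levels was the same with a pseudocount of 0.1.

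Replicate numbers were not shown to pair the samples. Of same-numbered pairs, 2 of 14, 3 of 12, 1 of 12 and 3 of 13 correlated above 0.1 in their deviations from group means. The highest r was 0.39, 0.23, 0.17 and 0.23, and 2, 3, 1 and 3 pairs were most alike with their own number. These values do not exclude that some pieces were paired. With the replicate number as a block, 5, 4, 4, 5 and 2 of the 9 genes were called in the 5 comparisons, the Uap1 interaction was 0.044, the Gfpt2 interaction stayed past the threshold, and so did that of Has2. The genes called were not all the same. Between the sides without hCG, Cd44 was gained and Tnfaip6 (0.955, edgeR FDR = 0.1715) and Gfpt1 (0.37, edgeR FDR = 0.0742) were lost. Cd44 was also gained between the sides post-hCG. For hCG on the ruptured side Tnfaip6 was gained (0.92, edgeR FDR = 0.0440) and Uap1 was lost. Depth limited Has2 and Ptx3 most. The cause of these changes was not tested, other than the loss of Has2 to filters.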
